A study of Rattus norvegicus with 372 samples.

Results

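The wells described here are those in which primary rat hepatocytes were treated with 8 µM WY14643, a research compound that activates PPARs (peroxisome proliferator-activated receptors). Members were taken by their labels, as all wells labelled WY14643 at 8 µM in either batch, which gave 6 WT libraries of the 372 WT and ST libraries in all, and they were compared with the 9 vehicle wells of the same batches. Wells with 200 µM WY14643 and with 400 µM valproic acid, 6 WT wells each, and low concentrations of other chemicals on the same plates served as further references. Hepatocytes of male Wistar rats were cultured between layers of collagen in multiwell plates, and treated wells and vehicle wells alike received 0.5% DMSO for 24 h in a medium with insulin, 100 nM dexamethasone and epidermal growth factor, so the vehicle wells are not hormone-free. A batch is 1 rat with its own plates, library preparation and sequencing run, and the 3 wells of a treatment in a batch are technical replicates, so that only 2 animals stand behind each result and p-values measure the spread between wells, not between animals. The whole transcriptome (WT) TempO-Seq assay, in which a pair of detector oligos is ligated on its transcript and counted, gave the main values, and the surrogate (ST) assay of the same lysates served as a check.

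Read depth by WT assay ran from 4.23 to 7.42 M reads in the WY14643 wells of batch 1 and from 7.20 to 7.46 M in those of batch 2, against 5.49 to 8.26 M and 5.79 to 7.20 M in the vehicle wells. In batch 1 all WY14643 wells were on plate 5 and all vehicle wells on plate 4, so plate and treatment cannot be told apart in that batch. In batch 2 the WY14643 wells were on plate 3 with 3 of the vehicle wells, and the other 3 vehicle wells were on plate 2. Between those vehicle plates, no gene of 10191 passed an adjusted p of 0.05 with edgeR (percent called 0), while 1423 genes had an unadjusted p under 0.05, DESeq2 called 12 genes, and edgeR called 1241 when only these wells were fitted. The median absolute log2 difference between the vehicle plates was 0.20 and its 95th percentile 0.64 over all genes tested, against 0.39 and 1.70 for WY14643 against vehicle. Albumin (Alb), the main hepatocyte product, had 10332, 11624 and 12078 CPM (the reads of a gene as a share of all reads of its well, scaled between wells by the TMM method) in the vehicle wells of batch 1 and 18429, 18886 and 19704 CPM in its WY14643 wells. In batch 2 the vehicle wells ran from 12255 to 14278 CPM (median 13464) and the WY14643 wells had 15422, 15506 and 17043 CPM. The log2 fold change of Alb was 0.77 in batch 1, 0.24 in batch 2 (adjusted p = 0.0332) and 0.45 over both.

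PPARα is a nuclear receptor that binds fatty acids and fibrate-like drugs. With its partner RXR it sits on DNA at DR1 elements, direct repeats of the half-site AGGTCA with 1 base between them, and in the liver it turns on the burning of fatty acids in peroxisomes and mitochondria, the making of ketone bodies and the handling of fatty acids by binding proteins and acyl-CoA enzymes. In rats and mice, long exposure to such agonists makes hepatocyte peroxisomes multiply, which gave the receptor its name.

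Promoters of the 35 genes with the largest changes and of a fixed set of PPARα-related and control genes, 50 in all, were searched on both strands for DR1 letters, a pair of AGGTCA with any base between, in the RefSeq table of the rat assembly GRCr8, which is not the build the reads were aligned to. Of these, 32 matched exactly 1 promoter, from 250 bases before to 50 after the start site. A match with at most 1 of the 12 fixed letters wrong was found in 2 of the 32, and 0.441% of 33365 distinct promoters in the table held one. With at most 2 wrong letters there were 4 of 32, against 3.78% of all promoters. These 4 are shown because they carry the closest matches: Fabp1, Acot4 and Cat rose with WY14643, and Slc2a2 fell. Cat is of the fixed set only. The 250 bases before the start site are given 5′ to 3′ on the gene's strand, and capitals mark the matching window, which reads on the opposite strand in Fabp1 (bases -77 to -65) and Acot4 (bases -13 to -1). In Cat (bases -169 to -157) and Slc2a2 (bases -146 to -134) it reads on the gene's strand. Fabp1 is at chr4:104749090-104749339 on the plus strand, Acot4 at chr6:109399604-109399853 on the plus strand, Cat at chr3:110329527-110329776 on the minus strand and Slc2a2 at chr2:113540120-113540369 on the plus strand, all in GRCr8. A match of letters is a description, not a binding site.
Fabp1: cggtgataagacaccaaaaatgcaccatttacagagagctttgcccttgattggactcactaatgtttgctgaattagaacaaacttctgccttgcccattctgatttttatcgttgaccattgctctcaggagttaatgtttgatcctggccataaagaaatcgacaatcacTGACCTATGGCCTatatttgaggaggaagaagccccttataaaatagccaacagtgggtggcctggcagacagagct
Acot4: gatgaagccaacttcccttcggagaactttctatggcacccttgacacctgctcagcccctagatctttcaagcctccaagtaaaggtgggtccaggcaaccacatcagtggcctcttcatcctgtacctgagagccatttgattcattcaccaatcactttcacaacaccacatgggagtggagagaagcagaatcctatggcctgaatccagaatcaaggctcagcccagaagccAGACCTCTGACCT
Cat: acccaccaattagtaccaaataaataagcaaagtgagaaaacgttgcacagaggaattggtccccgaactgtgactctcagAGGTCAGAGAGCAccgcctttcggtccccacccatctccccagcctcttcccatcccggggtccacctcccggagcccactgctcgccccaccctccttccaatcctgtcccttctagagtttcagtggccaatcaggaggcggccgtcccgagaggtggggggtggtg
Slc2a2: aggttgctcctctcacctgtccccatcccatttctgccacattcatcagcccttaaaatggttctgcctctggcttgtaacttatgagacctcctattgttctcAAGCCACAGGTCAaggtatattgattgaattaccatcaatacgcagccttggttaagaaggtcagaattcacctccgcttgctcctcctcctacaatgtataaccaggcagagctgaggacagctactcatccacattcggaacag

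The comparison of 8 µM WY14643 with vehicle asks which genes the agonist moved in both animals at the lower of its 2 concentrations. When both batches were fitted together, 5728 of 10191 genes (56.2%) were DEGs at an adjusted p under 0.05, of which 2851 (28%) were higher and 2877 (28.2%) lower. An absolute log2 fold change (L2FC) of at least 1 was reached by 1566 DEGs (15.4%), 824 (8.09%) higher and 742 (7.28%) lower. An increase of at least 3 on the log2 scale was seen for 120 DEGs and a decrease of that size for 4, the 50 DEGs with the largest absolute L2FC were all higher, and the median L2FC of all genes was -0.01. The sizes of increases and decreases have unlike limits. A decrease ends at the floor of the counts, whereas a gene silent with vehicle can enter through treated wells and rise far. Fitted alone, batch 1 gave 3746 DEGs (36.8%), with 19.3% of genes higher and 17.4% lower, and batch 2 gave 5416 (53.1%), with 26% higher and 27.2% lower, and 3050 genes (29.9%) were called in both with the same sign, 1603 (15.7%) higher and 1447 (14.2%) lower, while 13 were called with opposite signs. With the low concentrations of 5 other chemicals on the WY14643 plate as the reference, which puts both sides of the comparison on 1 plate, 5407 genes were called. These were acetaminophen at 400, chloramphenicol at 18, indomethacin at 12, ketoconazole at 0.6 and sulfasalazine at 4 µM. They are treated wells and no neutral control, since the paper lists DEGs for each of them in 1 batch or both.

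The leading genes went from nearly no signal to a high level. Acot1, a cytosolic acyl-CoA thioesterase that frees fatty acids from coenzyme A, had 802, 877 and 908 CPM in the WY14643 wells of batch 1 and 615, 644 and 731 CPM in those of batch 2. No vehicle well had more than 1 read of Acot1, so that against a floor of 3 reads per library the gene was at least 1610-fold higher in batch 1 and at least 1325-fold higher in batch 2. Cyp4a1, which hydroxylates fatty acids at the omega end, had 1.08, 1.61 and 2.39 CPM in the vehicle wells of batch 1 and 2945, 3058 and 3237 CPM with WY14643. In batch 2 its vehicle wells ran from 0.832 to 2.32 CPM (median 1.64) and its WY14643 wells had 2321, 2329 and 2460 CPM. The L2FC of Cyp4a1 was 10.60 ± 0.40 (SE, adjusted p = 8.28e-59), and its neighbour in function Cyp4a2 gave 10.15. Since these genes share sequence, the counts of the probes of the Cyp4a and Acot families may not be wholly separate.

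Ehhadh, the bifunctional enzyme of peroxisomal β-oxidation, had 0.853, 2.0 and 3.00 CPM with vehicle and 3073, 3410 and 3528 CPM with WY14643 in batch 1. In batch 2 the vehicle wells ran from 0.713 to 2.46 CPM (median 1.59) and the WY14643 wells had 2301, 2384 and 2459 CPM, an L2FC of 10.56 ± 0.28 over both batches (SE, adjusted p = 2.11e-79). Fabp1, the liver fatty acid-binding protein, had 38.7, 44.3 and 61.8 CPM with vehicle in batch 1 and 16716, 19593 and 19908 CPM with WY14643. In batch 2 it went from 17.4 to 24.5 CPM (median 21.6) to 8648, 9154 and 9562 CPM, and its L2FC was 8.70 ± 0.32 (SE, adjusted p = 2.04e-59). The groups of wells were far apart in each batch for both genes.

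Pdk4, the kinase that shuts pyruvate dehydrogenase when fat is burned, had at most 2 reads in any vehicle well. Its WY14643 wells had 41.7, 57.6 and 59.5 CPM in batch 1 and 67.0, 83.6 and 105 CPM in batch 2, at least 98.8-fold and 171-fold higher. Not all genes at the top have a known place in fatty acid metabolism. Chrna2, a subunit of the nicotinic acetylcholine receptor, had at most 1 read in any vehicle well and 49.6, 49.9 and 58.5 CPM with WY14643 in batch 1, with 67.5, 75.6 and 77.4 CPM in batch 2, at least 98.3-fold and 147-fold higher. Krt23, a type I keratin, likewise had at most 1 vehicle read, against 21, 27.9 and 32.1 CPM in batch 1 and 18.0, 23.6 and 24.0 CPM in batch 2, at least 50.4-fold and 43.7-fold higher. These 4 genes reached the filter of a mean of 10 reads over all wells only through treated wells. Other genes named below did so too, among them Hacl1 and G6pc, with at most 6 reads in any vehicle well, and Cyp2b1, with at most 3. Fabp3 and Serpine2 had at most 10 reads in any vehicle well.

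**Figure D1:**
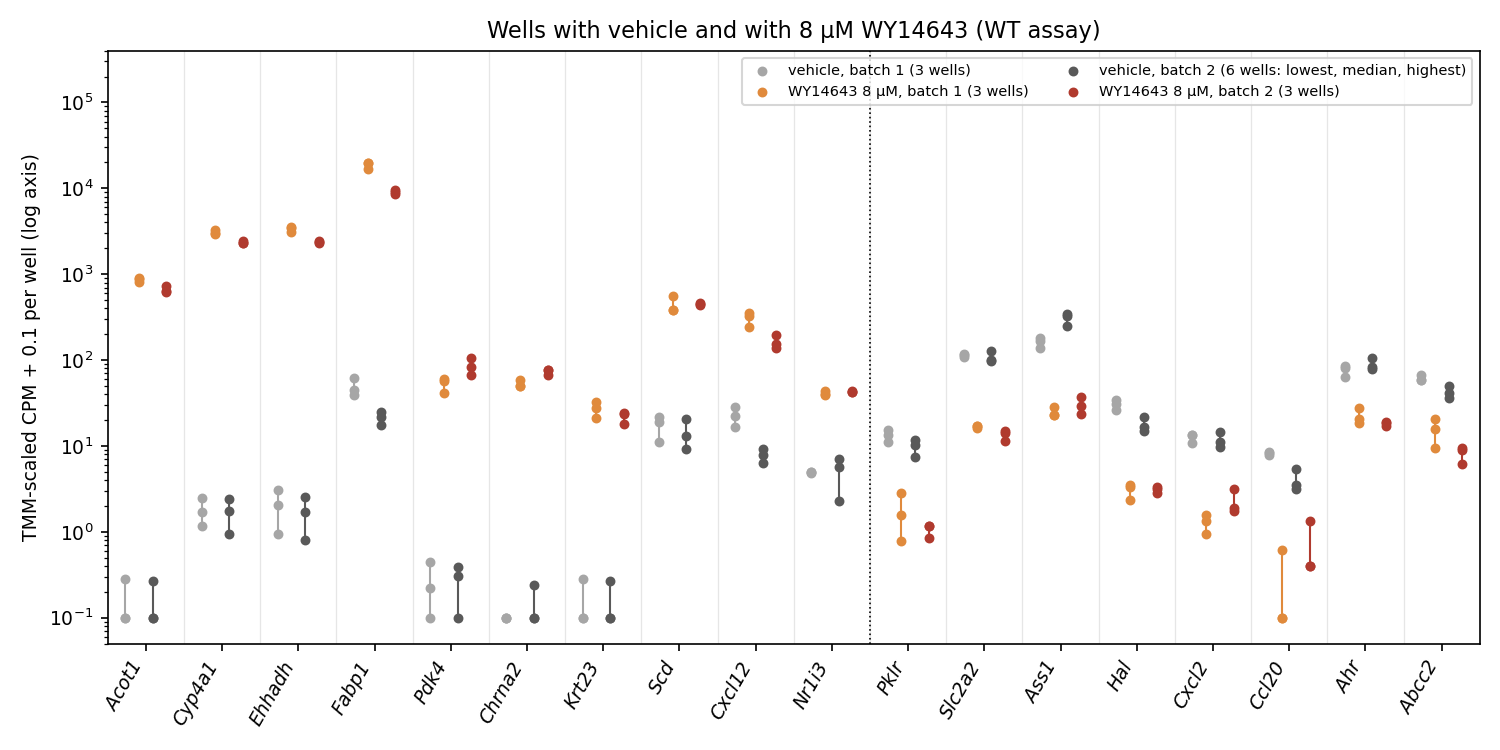
TMM-scaled CPM plus 0.1 on a log axis in wells with vehicle (grey) and with 8 µM WY14643 (orange and red) for 10 higher and 8 lower genes, split by the dotted line. Points are wells (for the 6 vehicle wells of batch 2 the lowest, median and highest) and bars join the lowest and highest. The groups do not overlap in either batch for any gene shown, and Acot1 stands at no more than 1 read per vehicle well.

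Other genes among the 20 with the largest increase included the lipid genes Cpt1b (7.32), Fabp3 (6.43), Acot4 (5.81) and Acsl1 (5.75), the cytochrome Cyp2b2 (5.70), the protease inhibitor Serpine2 (6.85), the kinase Nim1k (5.85), Abhd15 (5.66) and the uncharacterised symbol AABR07059308.1 (7.14). RGD1565355 (7.85), which RefSeq lists as Cd36l1, a neighbour of the fatty acid translocase Cd36, rose from 12.7, 13 and 20.5 CPM to 2029, 2169 and 2356 CPM in batch 1. The symbol LOC103690020 had an L2FC of 6.99. For all 20 genes the WY14643 wells lay above the vehicle wells in both batches, and for all 15 genes with the largest decrease they lay below them. Of all genes tested, 32% were apart in this way. The 35 genes were chosen by their change in this comparison, so their sizes are a description. The vehicle plates of batch 2 differed by a median absolute log2 value of 0.34 over the 35 genes, and by 1.95 at most, for Krt23 with its 0 or 1 read per well.

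Peroxisomal β-oxidation, which shortens very long and branched fatty acids and makes hydrogen peroxide, rose throughout. All 14 members tested rose and all 14 did so in each batch, with a median L2FC of 3.48 beside -0.01 for all genes. Of 17 list genes in the assay, 14 passed the filter on low counts. Hacl1, with at most 6 reads in any vehicle well, passed it only through treated wells. In this and other lists, a gene of that kind could hardly be counted as lower. Counts of this and the other lists stand against 28% of all genes higher and 28.2% lower, and counts in both batches against 15.7% higher and 14.2% lower. Ech1 (5.15), an enoyl-CoA isomerase, and Hacl1 (5.05), which splits 2-hydroxy acids, were among those that rose after Ehhadh, and the smallest increase of the list was that of Pecr (1.00).

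Of the genes of peroxisome assembly and fission, 16 of 21 rose and none fell, with a median L2FC of 0.57. Pex11a, which elongates and divides peroxisomes, rose by 5.10, the membrane protein Pxmp4 by 2.74 and Pex16, which brings in membrane proteins, by 2.00. Catalase (Cat), which breaks down hydrogen peroxide, rose by 3.85 ± 0.11 (SE).

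The carnitine shuttle and mitochondrial β-oxidation, which feed and burn long-chain acyl-CoA in mitochondria, rose in 16 of 17 members, all 16 in both batches, with a median L2FC of 3.22. Cpt1a, the liver form of carnitine palmitoyltransferase, went from 3.75, 6.79 and 7.57 CPM to 92.8, 96.6 and 123 CPM in batch 1 and from 3.18 to 4.68 CPM (median 4.07) to 47.6, 71.2 and 75.1 CPM in batch 2, an L2FC of 4.09 ± 0.20 (SE, adjusted p = 6.67e-44). Cpt1b, the muscle form of the same enzyme, went from 3.75, 4.11 and 5.05 CPM to 583, 617 and 668 CPM in batch 1, an L2FC of 7.32 ± 0.20 over both batches (SE, adjusted p = 3.38e-78). The thiolase Acaa2 (5.42), the dienoyl-CoA reductase Decr1 (4.68) and the isomerase Eci1 (4.13) also rose. Acadsb, the dehydrogenase for short branched chains, was the exception with an L2FC of -0.25 that did not pass the test.

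Each of the 3 ketogenesis genes tested rose. Acat1, the acetoacetyl-CoA thiolase, rose by 5.46 and Bdh1, which makes β-hydroxybutyrate, by 2.59. All 7 acyl-CoA thioesterases tested rose, with a median L2FC of 4.45 that was the same with Acot1 at its lower bound, and 6 of them in both batches: beyond Acot1 these included Acot3 (4.59), mitochondrial Acot2 (4.45) and Acot7 (3.76). Of 10 such genes in the assay, 7 passed the filter on low counts, Acot1 only through treated wells.

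Fatty acid uptake and binding was split. Of 12 genes tested, 6 rose and 1 fell, with a median L2FC of 0.37, so that Fabp1, Fabp3, Acsl1 and the transporter Slc27a2 (3.53) stood far above the rest of their list. Fabp4 (-0.08) and Lpl (0.17) did not pass the test. In omega oxidation, too, the gain lay with Cyp4a1, Cyp4a2 and the aldehyde dehydrogenase Aldh3a2 (1.43), while Cyp4f4 (-0.29) did not pass the test and Cyp4f6 (-0.42) fell.

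Genes of the lipid droplet and of lipolysis rose in 8 of 10 members, with a median L2FC of 2.67. Hilpda, which holds back the lipase Pnpla2, went from 10.7, 14.7 and 16.0 CPM to 276, 284 and 330 CPM in batch 1 and had an L2FC of 4.56. Pnpla2 itself (2.92), the monoglyceride lipase Mgll (3.06) and the droplet coat Plin2 (2.86 ± 0.10, SE) rose as well. Ucp2, a mitochondrial carrier of the uncoupling protein family, rose by 3.97.

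The enzymes that take up glycerol and steer pyruvate were all DEGs, 7 of 11 higher and 4 lower. Glycerol kinase (Gk) had 61.9, 65.6 and 80.9 CPM with vehicle and 2469, 2520 and 2704 CPM with WY14643 in batch 1, an L2FC of 5.32 ± 0.14 over both batches (SE, adjusted p = 2.11e-79). Gpd2 (4.00), which oxidises glycerol phosphate at the mitochondrion, and the glycerol channel Aqp7 (3.93) also rose, whereas Aqp9, the main glycerol channel of hepatocytes, fell by 2.72. The kinases of pyruvate dehydrogenase parted, with Pdk4 and Pdk1 (1.66) higher and Pdk2 (-0.48) and Pdk3 (-1.03) lower, and the carrier subunits Mpc2 (3.55) and Mpc1 (-0.58) moved in opposite directions.

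Among 10 genes of gluconeogenesis and glucose use, 5 rose and 3 fell, beside 28% and 28.2% of all genes. Glucose-6-phosphatase (G6pc), phosphoenolpyruvate carboxykinase (Pck1) and fructose bisphosphatase (Fbp1), which make glucose, rose by 3.75, 3.23 and 3.22. Pyruvate kinase (Pklr), at the end of glycolysis, fell from 11.1, 13.5 and 15.4 CPM to 0.684, 1.47 and 2.71 CPM in batch 1 and from 7.41 to 11.7 CPM (median 10.1) to 0.755, 1.06 and 1.08 CPM in batch 2, an L2FC of -3.18 ± 0.28 (SE, adjusted p = 1.07e-20). The glucose transporter Slc2a2 had 109, 113 and 117 CPM with vehicle and 16.3, 17.0 and 17.1 CPM with WY14643 in batch 1, with 96.4 to 128 CPM (median 101) and 11.2, 14.2 and 14.8 CPM in batch 2, an L2FC of -2.87 ± 0.17 (SE, adjusted p = 3.50e-36).

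**Figure D2:**
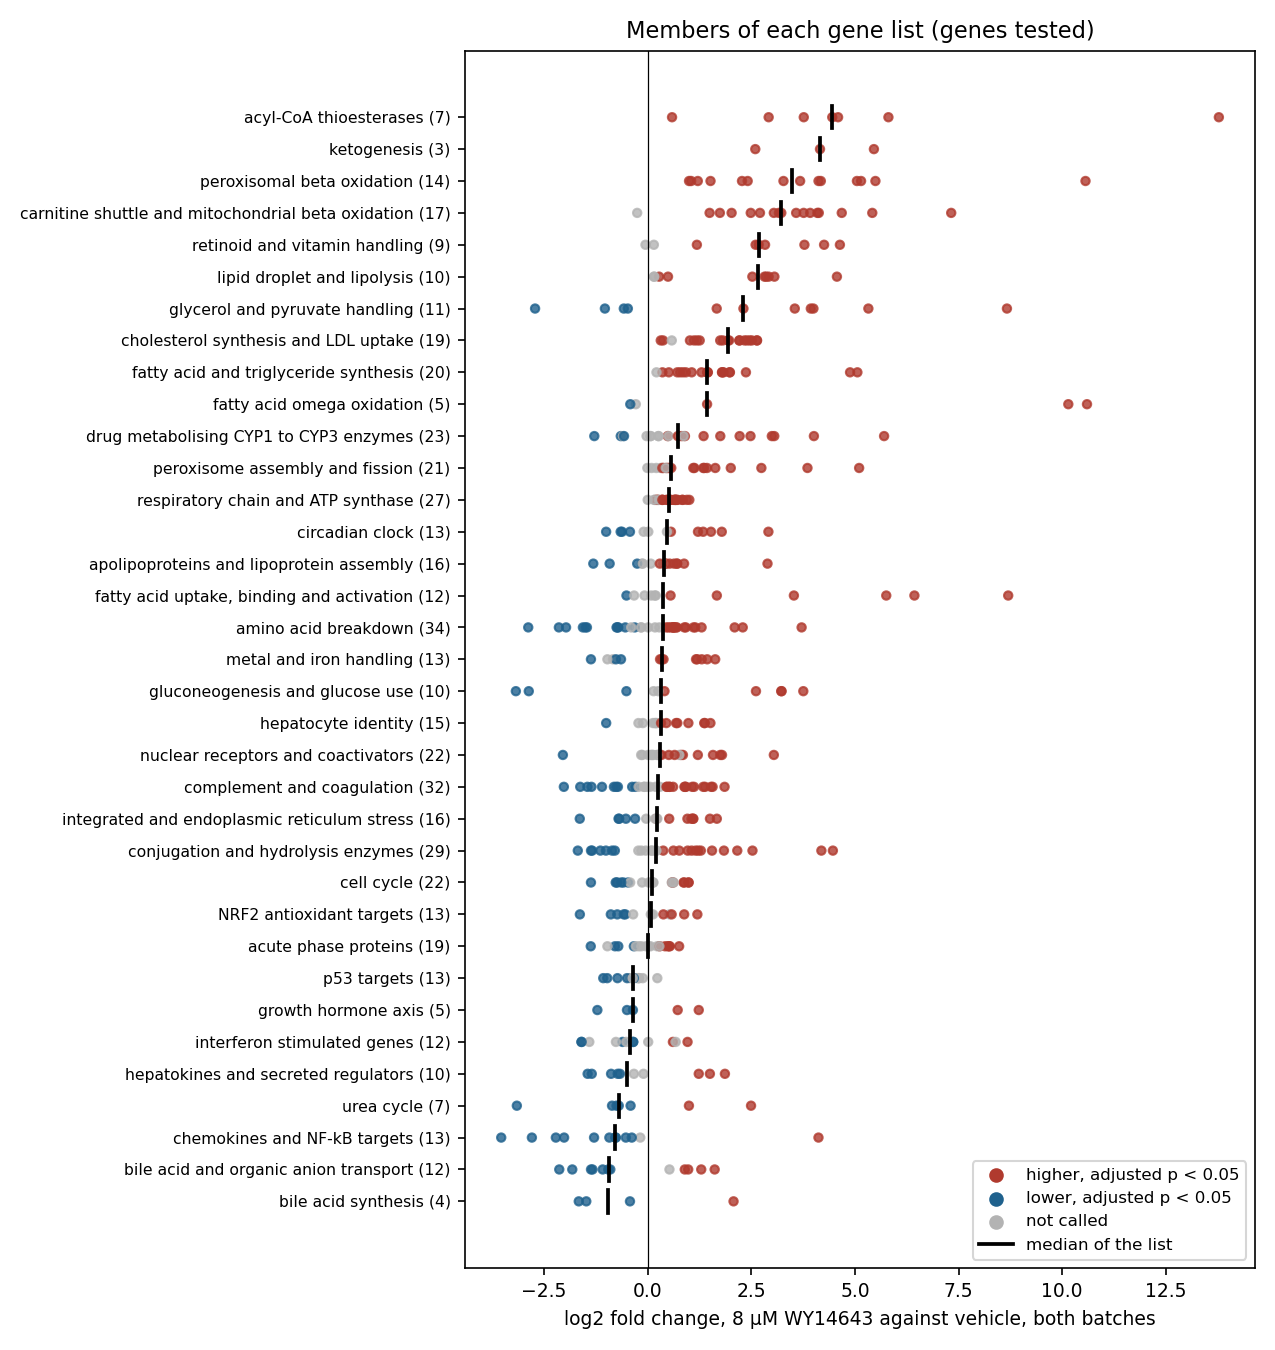
L2FC of 8 µM WY14643 against vehicle, both batches fitted together, for each gene tested in 35 gene lists, with the number tested in brackets and the list median as a bar. Red and blue points passed an adjusted p of 0.05 and grey points did not. Thioesterases, ketogenesis and both β-oxidation lists have the highest medians, between 3.22 and 4.45, and bile acid synthesis the lowest, -0.96.

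Genes that build lipids rose alongside those that burn them. Of 20 genes of fatty acid and triglyceride synthesis, 19 rose and none fell, with a median L2FC of 1.44. Stearoyl-CoA desaturase (Scd), which puts the double bond into oleate, had 10.9, 18.9 and 21.4 CPM with vehicle and 383, 386 and 556 CPM with WY14643 in batch 1, with 9.13 to 20.4 CPM (median 13) and 438, 447 and 459 CPM in batch 2, an L2FC of 4.88 ± 0.19 (SE, adjusted p = 2.91e-58). The elongase Elovl6 (5.06) had the largest increase of the list, and the desaturase Fads1 (2.37) and the acyltransferase Agpat3 (1.98) came after Scd. Fatty acid synthase (Fasn) rose by 0.71 over both batches, with -0.01 in batch 1 and 1.25 in batch 2.

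Cholesterol synthesis and LDL uptake, the set that SREBP2 governs, rose in 18 of 19 members with a median L2FC of 1.94, led by Insig1 (2.64), Fdps (2.63), Hmgcs1 (2.51) and Idi1 (2.46). These increases were not of the same size in the 2 rats. The median was 1.17 in batch 1 and 2.41 in batch 2, and the difference between batches itself was called for 12 of 19 members, all of them larger in batch 2, where 165 of all 10191 genes (1.62%) were called, 81 (0.795%) larger and 84 (0.824%) smaller in batch 1. That count over all genes rested on single wells: it was 41 without vehicle replicate 3 of batch 1, ran from 41 to 172 over the wells left out, and was 539 with the low concentrations as reference. Idi1, an isoprenoid isomerase, had 17.9, 17.9 and 23.4 CPM with vehicle in batch 1 and 5.23 to 9.55 CPM (median 6.81) in batch 2, while its WY14643 wells had 48.2, 59.5 and 60.4 CPM and 58.0, 60.1 and 67.3 CPM. Its L2FC was thus 1.54 and 3.15 (adjusted p of the difference = 1.38e-05). The vehicle level was higher in batch 1 for 17 of the 19 genes (median log2 ratio of batch 1 to batch 2 of 0.83) and the WY14643 level for 2 of 19 (median -0.17). Levels in different batches also carry the batch. With only the vehicle wells of plate 3 in batch 2 the difference was called for 13 of 19 genes, and with the low concentrations of the same plate as reference for 11.

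**Figure D3:**
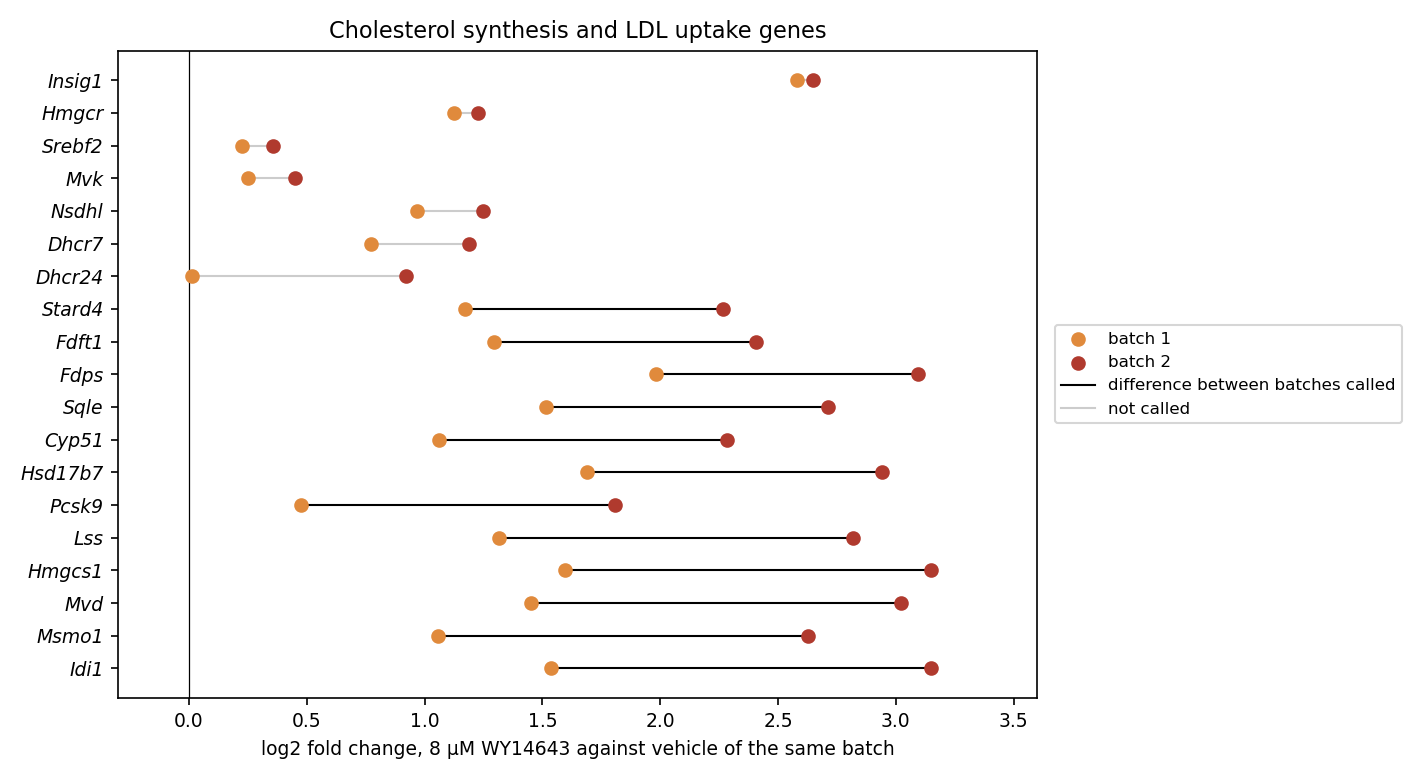
L2FC of 8 µM WY14643 against vehicle of the same batch for the 19 genes of cholesterol synthesis and LDL uptake that were tested, orange for batch 1 and red for batch 2. Black lines join the batches where the difference was called (12 genes) and grey lines where it was not, and each red point lies to the right of its orange point.

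Other genes with a called difference between the batches followed no shared direction. Hdc, which makes histamine, had an L2FC of 0.30 in batch 1 and 3.73 in batch 2 (adjusted p of the difference = 3.9e-07). Sult1e1, the oestrogen sulfotransferase, did the reverse, with 4.23 and 0.80 (adjusted p = 1.08e-08). Retsat, which saturates retinol, had the smallest p of the difference (adjusted p = 1.42e-21): it went from 81.3, 87.9 and 91.5 CPM to 1887, 2121 and 2168 CPM in batch 1 and from 36.9 to 46.1 CPM (median 41.2) to 269, 272 and 275 CPM in batch 2, so that it rose in both but by 4.59 in the former and 2.71 in the latter. Dbp, a clock output factor, rose by 2.39 and by 1.00. Batch is rat, plates, preparation and run at once, and these cannot be told apart.

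**Figure D4:**
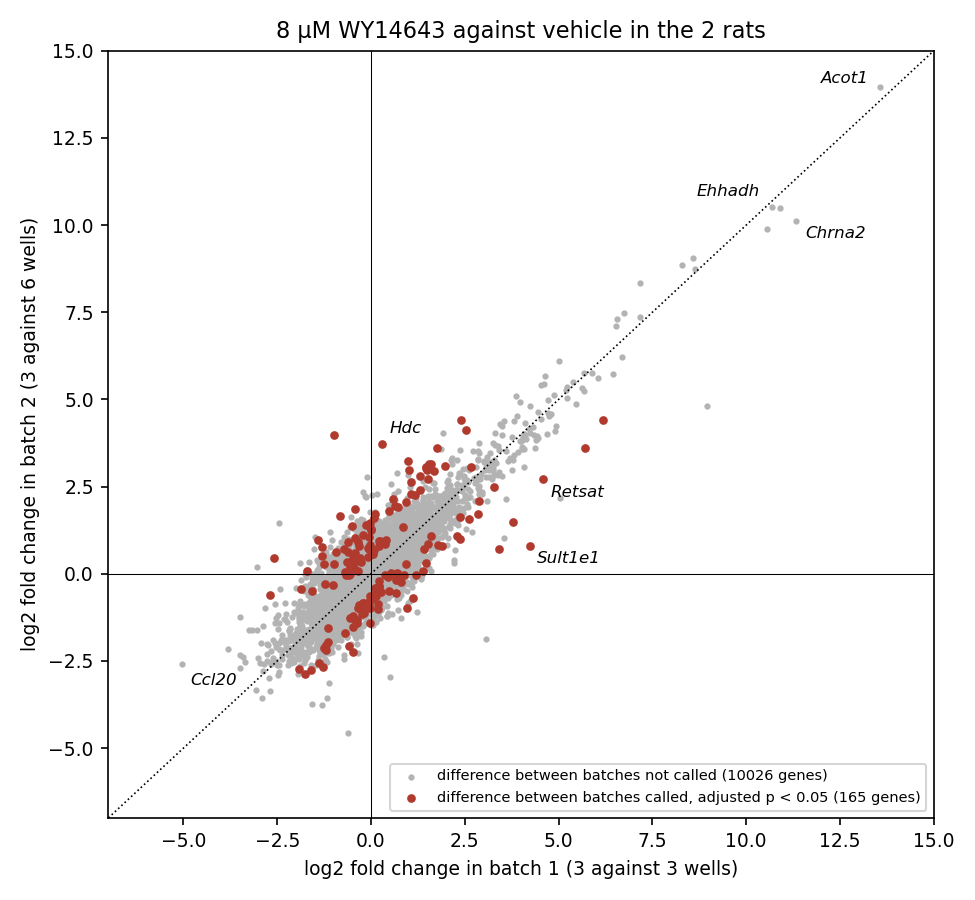
L2FC of each of 10191 genes in batch 1 (3 WY14643 against 3 vehicle wells) and batch 2 (3 against 6 wells), with the dotted line at equality. Red points are the 165 genes whose difference between batches was called, and Retsat, Sult1e1 and Hdc are labelled among them. The places of Acot1 and Chrna2, with at most 1 read in any vehicle well, depend on the floor of the counts.

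Over all 10191 genes, which are not independent of each other, Pearson's r of the L2FC in batch 1 and batch 2 was 0.86, and 78.4% of genes had the same sign. By ST assay, 1021 of 1760 genes (58%) were DEGs, 28% higher and 30% lower, and of the 834 genes called in both assays 830 had the same sign. The ST wells are the same lysates, so this does not check the cells. The paper states that some probes for the same genes differ in detector oligo between the assays. Where the oligos are the same, a match repeats the measurement and cannot check which transcripts a probe reads. All 17 of the 35 genes of largest change that ST tested were called there with the same sign, with a median absolute difference in L2FC of 0.19. Over the named genes as a whole it was 107 of 113. The widest gap was that of Cyp2d1, with an L2FC of 2.99 by WT and 0.21 by ST, which did not pass the test (adjusted p = 0.286), so the rise of this member of a family of near copies is uncertain. Eci2 (2.27 and 3.64) and Slc22a5 (3.76 and 2.55) had the same sign in both assays with a gap above 1. Cyp2b1 had the second widest gap, with a fitted L2FC higher by 1.52 by ST than by WT, but with at most 3 WT reads in any vehicle well its fitted WT value depends on the floor of the counts.

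Bile acid synthesis genes fell in 3 of 4 members tested, including the 27-hydroxylase Cyp27a1 (-1.48) and the 3α-hydroxysteroid dehydrogenase Akr1c14 (-1.66), while the reductase Akr1d1 rose by 2.07. Cyp7a1, the rate-limiting enzyme, did not reach the filter on low counts. Of 12 transporters of bile acids and organic anions, 7 fell and 4 rose. Abcc2, which exports conjugates into bile, fell from 58.4, 58.5 and 67.8 CPM to 9.37, 15.6 and 20.3 CPM in batch 1 and from 35.8 to 49.4 CPM (median 41.4) to 6.04, 8.78 and 9.40 CPM in batch 2, an L2FC of -2.13 ± 0.17 (SE, adjusted p = 2.06e-23). Its basolateral relative Abcc3 (-1.33) fell too, whereas the bile salt export pump Abcb11 (1.29) and Abcg2 (1.62) rose. The median L2FC of the transporters was -0.93, or -0.50 with Abcb4, which had at most 3 reads in every WY14643 well, at its bound.

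Drug-metabolising cytochromes of the CYP1 to CYP3 families rose in 12 and fell in 3 of 23 members, with a median L2FC of 0.73. Cyp2b2, the phenobarbital-inducible enzyme of rat liver, had 2.05, 3.6 and 5.71 CPM with vehicle and 173, 189 and 204 CPM with WY14643 in batch 1, with 0.825 to 3.33 CPM (median 1.95) and 89.96, 118 and 126 CPM in batch 2, an L2FC of 5.70 ± 0.29 (SE, adjusted p = 3.52e-43). Cyp2b1 is its near copy, so reads may be split between the pair. It had at most 3 reads in any vehicle well and 1.71, 7.64 and 7.89 CPM with WY14643 in batch 1 and 4.69, 5.08 and 6.19 CPM in batch 2, at least 10.7-fold and 10.6-fold higher. Cyp2j4, an arachidonate epoxygenase, rose by 3.05. Of 29 conjugating and hydrolysing enzymes 14 rose and 7 fell, beside 28% and 28.2% of all genes, led by soluble epoxide hydrolase Ephx2 (4.47) and the carboxylesterases Ces1d (4.19) and Ces1f (2.53). NRF2 targets had no common direction (4 higher and 5 lower of 13, beside 28% and 28.2% of all genes), with Prdx1 (1.20) and Gclm (0.88) up and Gpx2 (-1.64) and Nqo1 (-0.89) down.

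Among 22 nuclear receptors and coactivators 11 rose and 1 fell. Nr1i3, which encodes the constitutive androstane receptor that switches on Cyp2b genes, had 4.78, 4.82 and 4.93 CPM with vehicle and 39.1, 40.2 and 43.2 CPM with WY14643 in batch 1, with 2.17 to 6.95 CPM (median 5.58) and 42.3, 42.4 and 43.0 CPM in batch 2, an L2FC of 3.04 ± 0.18 (SE, adjusted p = 4.59e-36). Ppara itself rose by 0.80 ± 0.20 (SE, adjusted p = 0.000356), from 29.2, 31.5 and 37.9 CPM to 62.4, 77.0 and 81.2 CPM in batch 1 and from 63.2 to 80.2 CPM (median 72.1) to 100.1, 109.9 and 111 CPM in batch 2. Its partner Rxra rose by 0.85. The aryl hydrocarbon receptor Ahr was the member that fell, from 63.8, 80.4 and 85.6 CPM to 18.3, 20.6 and 27.9 CPM in batch 1, an L2FC of -2.05 ± 0.18 over both batches (SE, adjusted p = 1.15e-20).

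Of 7 urea cycle genes 5 fell, with a median L2FC of -0.70. Ass1, which joins citrulline and aspartate, fell from 137, 166 and 182 CPM to 22.7, 22.7 and 28.2 CPM in batch 1 and from 251 to 343 CPM (median 325) to 23.2, 29.4 and 37.4 CPM in batch 2, an L2FC of -3.16 ± 0.14 (SE, adjusted p = 3.21e-48). Cps1 (-0.86), the entry enzyme, fell as well, and the aspartate carrier Slc25a13 (2.49) rose. Of 34 amino acid breakdown genes 17 rose and 11 fell, the latter near the 28.2% of all genes. Ornithine aminotransferase (Oat) went from 2.73, 3.04 and 3.96 CPM to 50.3, 50.5 and 57.2 CPM in batch 1 with an L2FC of 3.71, and Agxt, which detoxifies glyoxylate, rose by 2.29. Hal, the first enzyme of histidine breakdown, fell from 26.3, 30.7 and 34.3 CPM to 2.22, 3.23 and 3.45 CPM in batch 1 with an L2FC of -2.88, and the kynurenine hydroxylase Kmo fell by 2.14.

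Chemokines and NF-κB targets fell in 10 of 13 members, 8 of them in both batches, with a median L2FC of -0.78. Ccl20, which attracts CCR6-bearing lymphocytes, had the largest decrease of the named genes: 7.68, 8.17 and 8.36 CPM with vehicle became 0, 0 and 0.513 CPM in batch 1, and 3.03 to 5.23 CPM (median 3.38) became 0.302, 0.303 and 1.23 CPM in batch 2, an L2FC of -3.53 ± 0.53 (SE, adjusted p = 2.05e-09). Cxcl2, a neutrophil attractant, fell from 10.7, 13.4 and 13.5 CPM to 0.855, 1.23 and 1.47 CPM in batch 1 with an L2FC of -2.79, and the CXCR3 ligand Cxcl11 fell by 2.22. Cxcl12, the ligand of CXCR4, was the only member of the list that rose: from 16.5, 22.0 and 28.2 CPM to 243, 322 and 350 CPM in batch 1 and from 6.22 to 9.12 CPM (median 7.83) to 139.7, 156 and 195 CPM in batch 2, an L2FC of 4.12 ± 0.21 (SE, adjusted p = 8.14e-42).

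Acute phase proteins moved little, with 6 higher and 4 lower of 19 and a median L2FC of 0.02. Apcs (-1.37) and Lbp (-0.71) fell, and Lcn2 (0.76) rose, although with the low concentrations of the same plate as reference Lcn2 had an L2FC of 0.15 that did not pass the test. Of 32 complement and coagulation genes 15 rose and 10 fell, the latter near the 28.2% of all genes, among them the protease Masp2 (1.85) and factor B (Cfb, 1.57) upward and heparin cofactor II (Serpind1, -2.02) and plasma kallikrein (Klkb1, -1.63) downward. Interferon-stimulated genes fell in 5 and rose in 2 of 12, with Gbp2 at -1.6. Of all genes tested 28% rose and 28.2% fell, and the counts of the acute phase list lie near or below these shares.

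Genes for vitamin handling rose in 7 of 9 members with a median L2FC of 2.68. Vnn1, a pantetheinase, had 66.3, 74.8 and 77.9 CPM with vehicle and 1665, 1921 and 2043 CPM with WY14643 in batch 1 and an L2FC of 4.64 ± 0.15 over both (SE, adjusted p = 2.45e-68), and Pank1, the kinase that starts coenzyme A synthesis, rose by 4.25. Circadian clock genes rose in 6 and fell in 4 of 13, beside 28% and 28.2% of all genes: Hlf, Nr1d2 and Nr1d1 rose by 2.91, 1.53 and 1.34 along with Dbp. In iron and metal handling 8 of 13 rose, including the hepcidin regulators Tmprss6 (1.43) and Hjv (1.30), while the metallothionein Mt2A fell by 1.37. In the growth hormone axis 2 of 5 genes rose and 3 fell, with a median L2FC of -0.36. Igf1 (1.23) and Ghr (0.72) rose and Socs2 (-1.22) fell, and the wells of Igf1 and Socs2 overlapped those of vehicle in batch 2.

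Secreted regulators fell in 5 and rose in 3 of 10, where 28.2% of all genes fell and 28% rose. Fgf21, a fasting hormone of the liver, rose by 1.5 ± 0.20 (SE), with 1.89 in batch 1 and 1.07 in batch 2, and Angptl8 rose by 1.86. Of 16 apolipoproteins and assembly factors 9 rose and 3 fell, led by Mttp (2.89), which loads lipid onto apolipoprotein B, and with Apoa5 (-1.31) lower. Respiratory chain and ATP synthase subunits rose in 21 of 27 members and fell in none, but by little, with a median L2FC of 0.52 and a maximum of 1.00 for Atp5f1c.

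Of 22 cell cycle genes 6 were higher and 6 lower, near the 28% and 28.2% of all genes. None of them was called higher in both batches and 4 were called lower in both, the latter near the 14.2% of all genes, of which 15.7% were higher in both. The difference between batches was called for 5, all larger in batch 2, beside 0.824% of all genes. It was called for 4 with plate 3 vehicle only and for 1 with the low concentrations of the same plate as reference. Cyclin D1 (Ccnd1) fell from 33.2, 33.3 and 40.5 CPM to 9.23, 10.6 and 15.9 CPM in batch 1 with an L2FC of -1.37 ± 0.25 (SE, adjusted p = 5.95e-07). Mki67, a marker of dividing cells, had an L2FC of 0.86 (adjusted p = 0.00629) that was 0.08 in batch 1 and 1.40 in batch 2. By ST it did not pass the test (0.53, adjusted p = 0.1), and its WT wells overlapped those of vehicle in batch 1. The median of the list was -0.52 in batch 1 and 0.21 in batch 2. None of 13 p53 targets rose and 5 fell, with a median L2FC of -0.35: Aen fell by 1.07, Zmat3 by 0.98 and Bax by 0.73, while Cdkn1a (-0.43, adjusted p = 0.0612) did not pass the test. Gdf15, a stress-induced hormone, had an L2FC of -0.10 that did not pass the test. Stress genes of the endoplasmic reticulum and amino acid response rose in 8 and fell in 5 of 16, the latter near the 28.2% of all genes, with Hspa5 (1.5) and Asns (1.10) higher and Atf3 (-1.64) lower.

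Transcription factors that define hepatocytes mostly rose, with Cebpa at 1.51, Cebpb at 1.38 and Onecut1 lower at -1.0, and 8 of 15 hepatocyte identity genes higher and 1 lower. Of markers of other liver cells, no Kupffer cell or leukocyte gene of 7 tested and no endothelial gene of 1 tested was called. The summed level of the 12 Kupffer cell and leukocyte markers ran from 78.1 to 105 CPM with vehicle and from 114 to 130 CPM with WY14643 in batch 1, and from 67.4 to 84.7 CPM and 66.7 to 84.9 CPM in batch 2. The 9 stellate cell and fibroblast markers fell in sum, from 375 to 401 CPM to 251 to 275 CPM in batch 1 and from 236 to 303 CPM to 117 to 138 CPM in batch 2, by way of Reln (-1.51), while Col3a1 rose (0.45) and Col1a1 and Des had a median of 0 CPM in both groups. The cholangiocyte gene Sox9 rose by 1.12, and Krt7 and Cftr had a median of 0 CPM. The part of other cells in the results was not tested, and fewer cells of a type and less RNA per cell cannot be told apart in lysates.

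Against 200 µM WY14643 on the same plates, 585 genes (5.74%) differed, 328 (3.22%) higher at 8 µM and 257 (2.52%) lower, and 96 of them (0.942%) differed by at least 1 on the log2 scale. For the fatty acid genes no difference was called in most cases. The log2 difference of 8 from 200 µM was -0.20 for Acot1 (95% interval -0.51 to 0.10), 0.31 for Ehhadh (-0.09 to 0.71) and 0.05 for Cpt1a (-0.33 to 0.43), with adjusted p from edgeR of 0.421 to 0.927. Of the 14 peroxisomal β-oxidation genes none was called, and of the 17 mitochondrial ones 2 were, both higher at 8 µM. Fabp1 was 0.95 ± 0.28 higher at 8 µM (SE, adjusted p = 0.0205), with 9693, 9752 and 11064 CPM at 200 µM in batch 1 and 3597, 4708 and 5118 CPM in batch 2, and Fabp3 was 0.83 higher.

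Drug-metabolising genes were among those that differed between the concentrations. Of 23 cytochromes 11 were lower at 8 than at 200 µM and 1 higher, and of 29 conjugating enzymes 11 were lower and 2 higher. Cyp2b2 had 1661, 1694 and 1788 CPM at 200 µM in batch 1 and 733, 742 and 851 CPM in batch 2, and the log2 difference of 8 from 200 µM was -2.99 ± 0.26 (SE, adjusted p = 3.81e-19). Ugt2b17, a steroid glucuronosyltransferase, changed direction: it fell with 8 µM (L2FC -1.37, 18.0, 42.6 and 49.6 CPM in batch 1 against 87.7, 93.6 and 108 CPM with vehicle) and stood at 242, 339 and 372 CPM with 200 µM. Cyp2e1 had an L2FC of 0.73 against vehicle at 8 µM (adjusted p = 0.0477), with 1.55 in batch 1 (adjusted p = 0.000197) and 0.18 in batch 2 (adjusted p = 0.666), and by ST it did not pass the test (0.58, adjusted p = 0.164). Cyp2c6v1 did not pass the test by WT (0.50, adjusted p = 0.107) and did by ST (0.73, adjusted p = 0.0354). They differed from 200 µM by -2.73 and -2.89. AABR07035343.1, which RefSeq lists as Cyp3a23/3a1, was not called at 8 µM (0.87) and differed from 200 µM by -3.17. Lmcd1, a LIM domain protein, went the other way, 2.86 ± 0.34 higher at 8 than at 200 µM (SE, adjusted p = 1.3e-11). G6pc (-1.66) and Pck1 (-0.95) were also lower at 8 µM, and 9 of 19 cholesterol genes were higher, none lower.

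**Figure D5:**
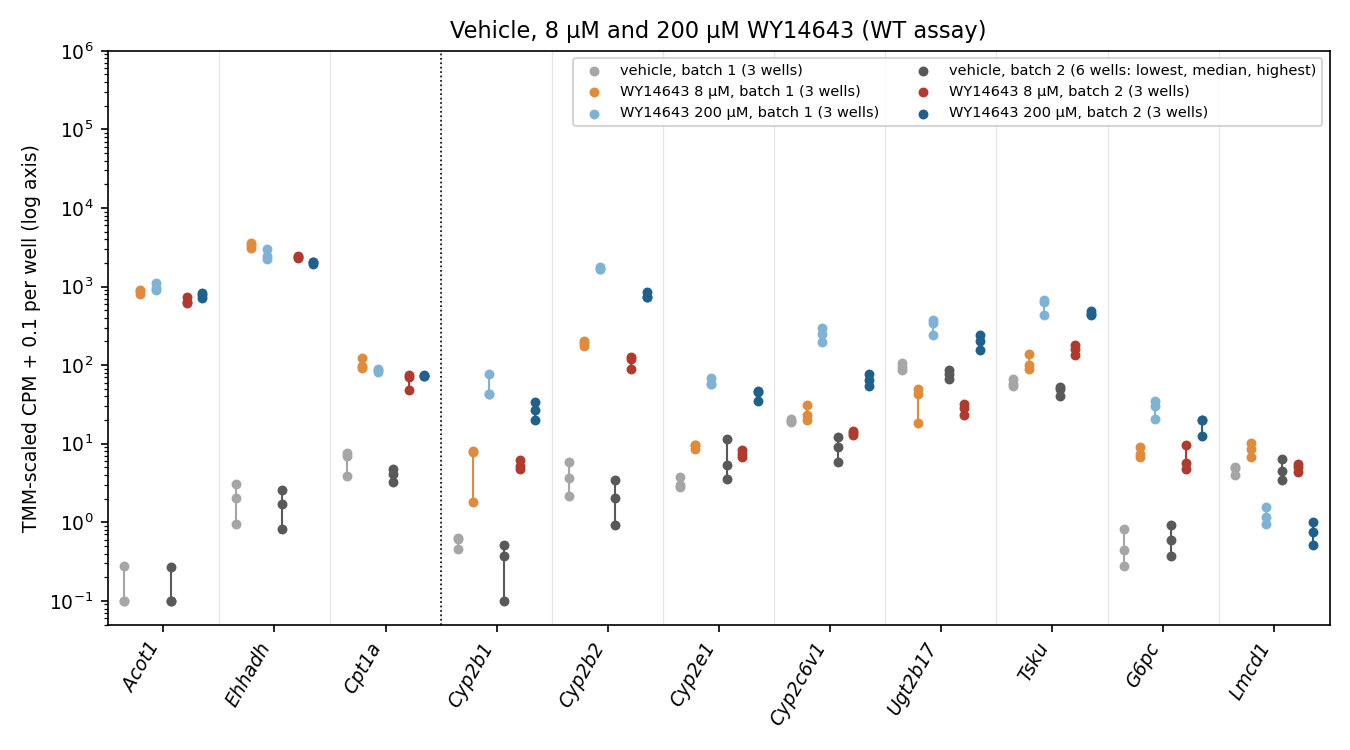
TMM-scaled CPM plus 0.1 on a log axis in wells with vehicle, 8 µM and 200 µM WY14643 of both batches, for 3 fatty acid genes left of the dotted line and 8 others right of it. Points are wells as in the plot of the leading genes, and the 2 concentrations lie close for Acot1 and Cpt1a but apart for Cyp2b2, Cyp2e1 and Lmcd1.

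Valproic acid, a branched fatty acid used against seizures, at 400 µM was set beside 8 µM WY14643, although its wells were on the other plate in both batches, so plate and chemical cannot be told apart. Of 10191 genes 4567 (44.8%) differed, 2376 (23.3%) higher and 2191 (21.5%) lower with WY14643. Valproic acid moved some of the same genes by less. Acot1 had 37.3, 40.7 and 41.2 CPM with valproic acid in batch 1 and 11.4, 13.4 and 19.5 CPM in batch 2, with WY14643 4.91 ± 0.19 above it (SE, adjusted p = 8.1e-56). Cyp4a1 stood at 665, 705 and 736 CPM with valproic acid in batch 1, 2.24 below WY14643. Fabp3 had 0.697, 0.773 and 2.41 CPM with valproic acid in batch 1 and Pdk4 1.08, 1.52 and 2.09 CPM, and WY14643 stood 5.67 and 5.39 above them. Peroxisomal β-oxidation was higher with WY14643 in 12 of 14 genes and mitochondrial in 16 of 17. For Cxcl12 the gap was small, 0.82, since valproic acid wells had 168, 177 and 182 CPM in batch 1 where vehicle had 16.5 to 28.2 CPM.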

How the data were processed

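The authors lysed hepatocytes in the wells, ran TempO-Seq and deposited raw read counts per probe and well, for 22253 WT and 2654 ST probes in 186 wells per assay, and the submitters' processing notes name STAR 2.5.3a and the rn6 build. Here the deposited counts were summed over probes of a symbol (1164 WT symbols had more than 1), and a gene was tested where its counts averaged 10 or more over all wells. The quasi-likelihood test of edgeR 4.0.16 (R 4.3.3) was fitted to all WT wells with TMM scaling and a batch term, with Benjamini-Hochberg adjustment over all genes and a threshold of 0.05. Fits within each batch, of the difference between batches and of ST used the same settings, and DESeq2 1.42.0 was an alternative. The code of the joint edgeR test was run on simulated WT counts. The other comparisons and steps were not tested in this way. Intervals of 95% cover the spread between wells.

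Named genes were the 20 higher and 15 lower with the largest change among those called in both batches with a mean of at least 1 CPM, up to 4 per list of 40 lists by the same order, up to 10 per direct test, and a fixed set with Ppara and its usual targets. Other list members given by name were chosen after their values were seen. The members and lists were chosen with earlier results of these data known. Where all vehicle wells had at most 3 counts, a lower bound against 3 counts per library replaces the fold change. Bounds cover counting error only. Some genes are not reported here.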

Additional observations from a re-analysis of the deposited data

Results flagged for a closer look

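In the 6 vehicle wells of batch 2, 7 of the 155 named genes checked had 1 well apart from the others, about the 1 in 20 that chance gives. The highest well had 622.5 CPM for Bax, 11 CPM for Cdkn1a, 14.72 CPM for Pdk2, 1.375 CPM for Fabp3 and 0.1668 CPM for both Acot1 and Krt23, where it stands for 1 read. The lowest well had 50.83 CPM for Gdf15.

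The log2 fold change differed between the batches, by the test of the difference itself, for 11 named genes. Batch 1 minus batch 2 was 3.39 for Sult1e1, 1.84 for Retsat, 1.35 for Dbp, 0.77 for Pxmp4 and 0.69 for Onecut1. It was -3.46 for Hdc, -1.65 for Idi1, -1.59 for Hmgcs1, -1.29 for Fasn, -1.15 for Fdps and -0.45 for Mttp. Rat, plates, preparation and run cannot be told apart in this difference.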

How the results depend on the processing

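No paired analysis was possible because the wells carry no replicate number in the labels beyond their batch. The batch term is the block of the main fit, and with no replicate block 5217 genes were called in place of 5728. The joint count was 5724 with DESeq2, 5700 with RLE scaling, 5904 with no filter, 6044 with only the wells compared, 5494 with the vehicle wells of plate 3 only in batch 2 and 5407 with the low concentrations as reference. With an absolute L2FC of at least 1 the counts were 1566 for both batches together, 1421 and 1831 for batches 1 and 2, 1059 in both, 404 by ST, 83 between batches, 96 against 200 µM and 885 against valproic acid. Between batches 286 genes were called with only the wells compared, 91 with no filter on low counts and 539 with the low concentrations. Against 200 µM 292 were called with no batch term and 1028 with only the wells compared. Between vehicle plates the counts were 12 with DESeq2, 11 with no filter and 1241 with only those wells.

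Leaving out each well in turn gave 5212 to 5709 genes for both batches together, 2983 to 3515 in batch 1, 4393 to 5374 in batch 2, 2569 to 3032 in both, 972 to 1023 by ST, 460 to 643 against 200 µM, 4057 to 4654 against valproic acid, 0 to 0 between vehicle plates, and 41 to 172 between batches, against 165 with all wells. It was 41 without vehicle replicate 3 of batch 1, 81 and 70 without WY14643 replicates 1 and 2 of batch 1, and 82 and 73 without those of batch 2. Of the 40 lists, 11 to 12 had a median L2FC of at least 1 in absolute value. Of the named genes, 5 no longer passed the test with the low concentrations as reference, 1 newly passed it and 1 changed sign. With no batch term 6 no longer passed it. Cyp2c6v1 was -0.098 with the low concentrations, and the cell cycle median ran from -0.016 to 0.158 over the wells left out, and was -0.038 with plate 3 vehicle and -0.074 with the low concentrations. It was -0.016 without WY14643 replicate 1 of batch 2. The causes were not tested.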
